A study of Mus musculus with 16 samples.

Results

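The 26S proteasome is the large ATP-driven protease that degrades ubiquitin-tagged proteins, and its transcripts are described here in sorted luminal cells of the mouse mammary gland. The members are all genes whose symbol marks a constitutive proteasome subunit, base chaperone or activator (Psma, Psmb, Psmc or Psmd with a number, and Psme1 to Psme4), without the immunoproteasome genes Psmb8, Psmb9 and Psmb10. Of 17097 genes on the arrays that could be named from a probe set with a single symbol, 37 were members, and where a gene had several such probe sets the one with the highest mean signal was read. A level filter at 3.67 on the log2 scale, the 25th percentile of all probe sets, left 14410 genes to test, 36 of them members. The 37th, the testis-specific alpha subunit Psma8, averaged 3.60 and lay below the filter. The thymus-specific subunit Psmb11, at 3.84, lay just inside it. Psmc6, Psmd10 and Psme4 were not analysed here.

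The study compared luminal mammary cells with and without a floxed allele of the stress-activated kinase p38α (gene Mapk14) in mice with and without a mammary oncogene. The luminal population was isolated by fluorescence-activated cell sorting, and its total RNA was hybridised to Affymetrix perfect-match arrays. All 4 groups carried MMTV-Cre, in which the promoter of the mouse mammary tumour virus drives Cre recombinase in mammary epithelium, and each had 4 arrays. The group MMTV-Cre carried Cre alone and p38α-lox carried p38a-lox with MMTV-Cre, both from mice aged 9 weeks. The group PyMT carried MMTV-Cre with MMTV-PyMT, in which the same viral promoter drives the polyoma middle T oncoprotein, and p38α-lox PyMT carried p38a-lox with both transgenes. Mice of the last 2 groups were aged 6 weeks, so the oncogene and age cannot be told apart in any comparison between groups with and without PyMT. The sources used here do not say whether both alleles were floxed. The labels do not say that each array is a separate animal, so p-values measure the spread between these samples.

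The proteasome is built of a barrel-shaped core particle, the 20S proteasome, and a regulatory particle, the 19S cap. The outer rings of the core consist of alpha subunits that gate the entry pore, and the inner rings consist of beta subunits that include the proteolytic ones. The cap has a base with a ring of ATPases, which unfold substrates, and a lid with the deubiquitinase that removes the ubiquitin chain. Because the subunits are needed together, their genes are known for parallel transcription, which in mammalian cells can be raised by the transcription factors Nfe2l1 and Nfe2l2 through antioxidant response elements.

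The targeted gene did not separate the groups. The Mapk14 probe set used averaged 6.53 in MMTV-Cre, 7.31 in p38α-lox, 7.20 in PyMT and 7.23 in p38α-lox PyMT. The difference between p38α-lox and MMTV-Cre was 0.78 ± 0.416 (log2, standard error; limma adjusted p = 0.999), and between p38α-lox PyMT and PyMT 0.03 ± 0.416 (limma adjusted p = 0.999). Sample titles carry numbers of unstated meaning, low for 9 of the arrays (called the lower range) and high for 7 (the higher range). Each group had 2 arrays in each range except PyMT, which had 3 in the lower range, replicate 4 among them, and 1 in the higher, so higher-range values that involve PyMT rest on a single PyMT array. In the lower range Mapk14 averaged 7.27 in the 2 MMTV-Cre arrays and 6.58 in the 2 arrays labelled p38α-lox. In the higher range it averaged 5.79 and 8.03, against the direction a deletion would give. The sources used here do not place these probes relative to the deleted part. Each group name below therefore stands for the arrays that carry the label. Differences without PyMT are also given within each range for the members as a list and for some named genes.

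The mean of the 9 luminal markers measured ran from 9.99 to 11.04 on the log2 scale. Krt8, the highest of them on average, lay between 12.14 and 12.54 and Gata3, the lowest, between 7.06 and 8.50. Esr1 ran from 6.66 to 10.71. Of 7 immune markers, Ptprc, Cd3e and Itgam averaged below the filter and 4 above it, of which the macrophage marker Cd68 ran from 5.38 to 9.44. The mean of the immune markers ran from 4.01 to 4.69 over the arrays without PyMT and from 4.55 to 4.78 over those with PyMT. The mean of 6 fibroblast markers, 3 of them above the filter, ran from 4.85 to 5.64 in MMTV-Cre, 4.30 to 4.67 in p38α-lox, 4.42 to 5.80 in PyMT and 4.22 to 5.86 in p38α-lox PyMT. Single fibroblast markers varied more, with Dcn from 5.10 to 9.82, whereas Lum ran from 3.15 to 3.93. The mean of 8 basal markers ran from 5.37 to 7.57 over the arrays without PyMT and from 7.12 to 8.14 over those with PyMT. Among them Krt5 ran from 6.30 to 11.52 and Acta2 from 6.72 to 10.38, whereas Oxtr ran from 4.81 to 5.78. The part of these markers in the comparisons was not tested. PyMT replicate 4 and p38α-lox replicate 2 stood apart, each with a median correlation of 0.934 with the other arrays, against 0.946 to 0.972 for the rest. Several of the differences below are also given without 1 of them.

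The mean over the 36 tested members showed 1 low array in place of a low group. On the log2 scale it was 9.55, 9.62, 9.46 and 9.46 in MMTV-Cre (9.52 ± 0.0746, SD, n = 4) and 9.23, 9.27, 9.44 and 9.51 in p38α-lox (9.36 ± 0.134, SD, n = 4). It was 9.40, 9.49, 9.46 and 8.84 in PyMT (9.30 ± 0.308, SD, n = 4) and 9.48, 9.63, 9.42 and 9.55 in p38α-lox PyMT (9.52 ± 0.0895, SD, n = 4). All 4 groups overlapped, and the largest gap lay between PyMT replicate 4 and the other 15 arrays. In bulk samples, fewer cells of a type and less RNA per cell cannot be told apart, and values normalised between arrays do not show the total amount of RNA.

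**Figure D1:**
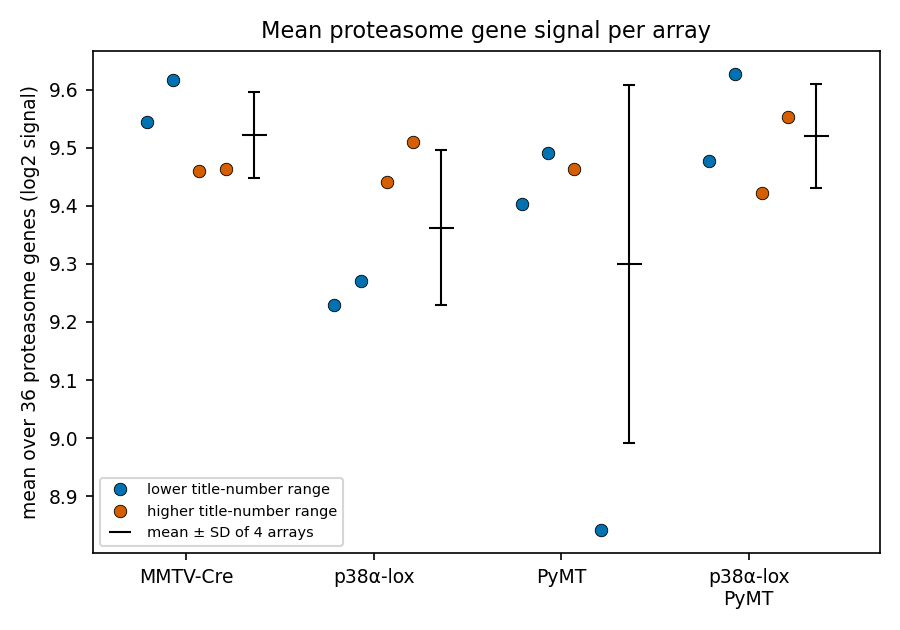
Mean log2 signal over the 36 tested proteasome genes on each of the 16 arrays, by group, with points coloured by the range of the title number and bars at the mean ± SD of 4 arrays. PyMT replicate 4, at 8.84, lies below the other arrays, which run from 9.23 to 9.63.

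PyMT replicate 4 was the lowest of the 16 arrays for 18 of 36 members, whereas 13% of all tested genes were lowest there. On that array 28 of 36 members lay below their own group mean, with a median deviation of −0.44, against 48.3% of all tested genes. The members had a median level of 9.74 and all tested genes 5.84, so these shares do not compare genes of like level. Whether other genes of that level were as low there was not tested. Low members came from the core, the base and the lid. Psmb7, the core subunit with trypsin-like activity, measured 10.60, 10.66, 10.32 and 8.87 on the 4 PyMT arrays. The base ATPase Psmc5 measured 9.43, 9.21, 9.45 and 7.72 there. Psmd1, the scaffold of the base, measured 8.86, 10.10, 9.82 and 8.09. In each of these genes the low array was replicate 4, although replicate 1 was also low for Psmd1. The cytosolic chaperonin genes, which encode another large multi-subunit complex, also had their lowest mean there, 9.98 against 10.20 to 10.90 on the other 15 arrays. The distribution of signal on the array was narrower too, with an SD over probe sets of 1.89, which was 1.90 on p38α-lox replicate 2 and 1.98 to 2.05 on the others. A second quantile normalization raised the member mean of the array to 9.06, where it was still the lowest for 16 members. The part of this narrower signal in the low member values was not tested.

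The array labelled p38α-lox replicate 1 was lowest for 8 members (14.6% of all tested genes were lowest there) and replicate 2 for 4 members (10.4%). Different subunits were low on each. Replicate 1 was low for Psmd3 of the lid, at 6.54 against 7.45 to 8.04 on the other 3 arrays of its group, and for Psmb5, the core subunit with chymotrypsin-like activity, at 9.03 against 9.85 to 10.01. Replicate 2 was low for the alpha subunits Psma4, at 7.68 against 8.38 to 9.18, and Psma5, at 8.58 against 9.70 to 10.03.

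**Figure D2:**
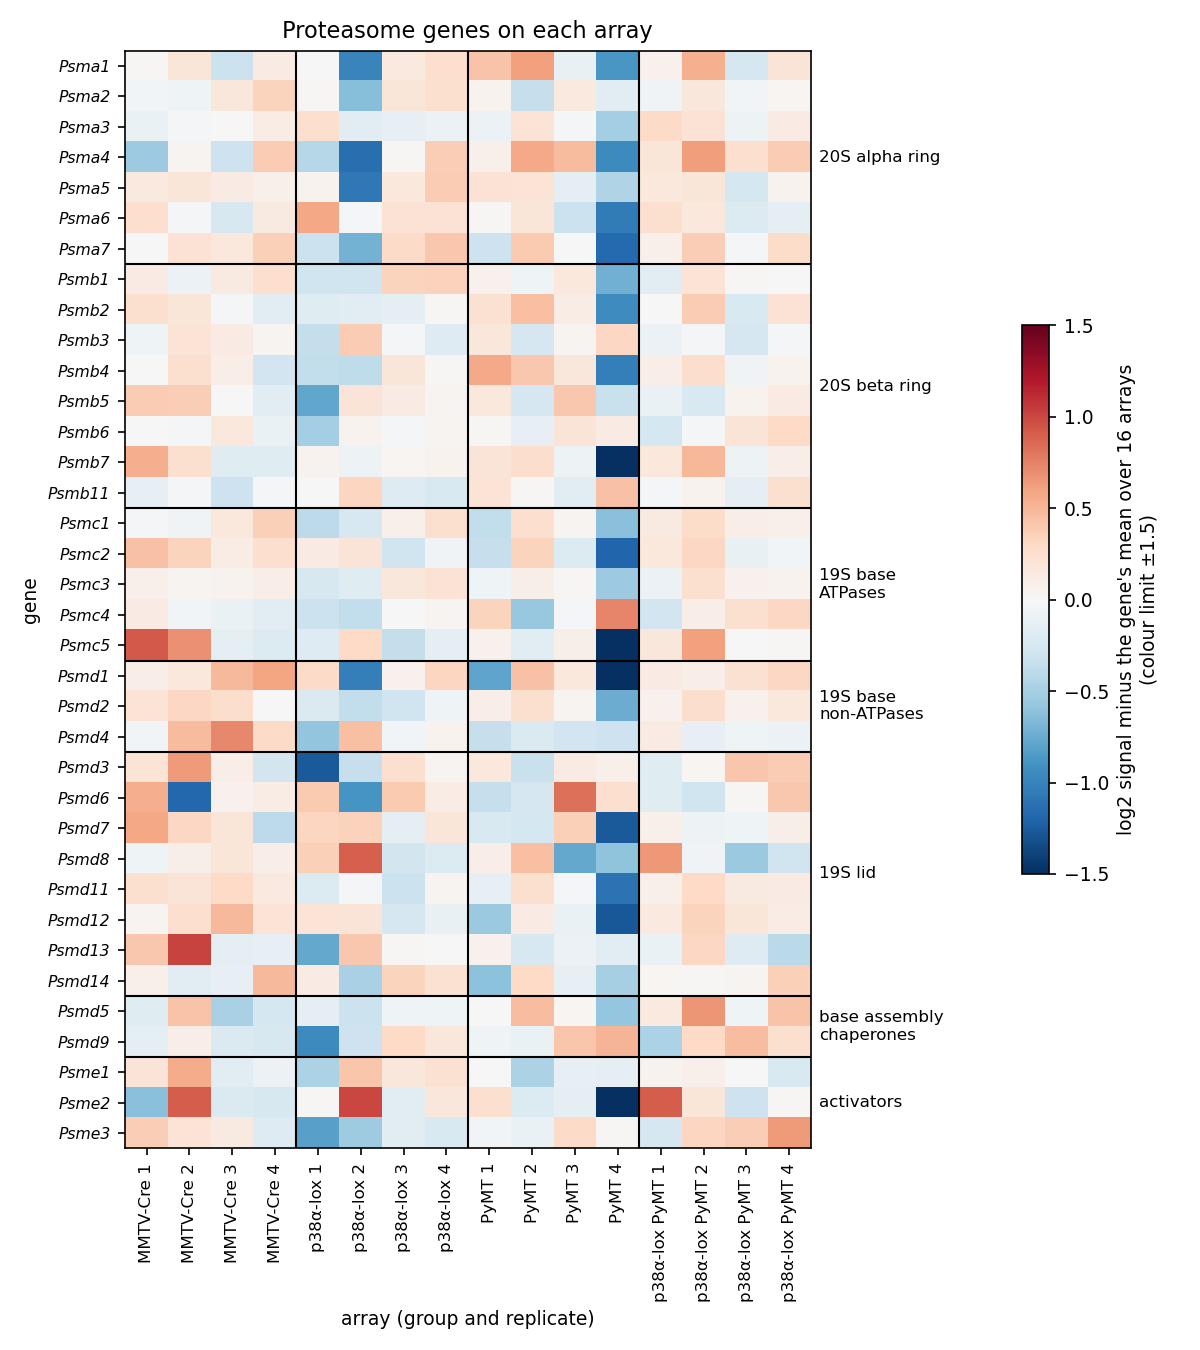
Log2 signal of each tested proteasome gene on each array minus the gene's mean over 16 arrays, with genes in rows by role and arrays in columns by group; colours are limited at ±1.5. PyMT replicate 4 is low for most genes of the core, base and lid, while Psmc4, at 10.83, is high on it.

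Within groups the members varied about as much as other genes. The median within-group SD was 0.342 for members and 0.318 for all tested genes. It ran from 0.198 for the ATPase Psmc3 to 0.628 for Psme2, a subunit of the interferon-inducible activator PA28.

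The comparison without PyMT asks how luminal cells labelled p38α-lox differ from those labelled MMTV-Cre before any oncogene. By limma with Benjamini-Hochberg adjustment over all tested genes, 0 of 36 members passed an adjusted p of 0.05 between the arrays labelled p38α-lox and MMTV-Cre, and 0% of all 14410 genes did. At an unadjusted p under 0.05 stood 2 members, Psme3 and Psmd2, or 5.56% of members and both lower, against 4.79% of all genes (2.47% lower, 2.32% higher). Of the 36 members, 30 had lower estimates in p38α-lox (83.3%, against 49.9% of all tested genes). The median member difference was −0.15 on the log2 scale, and the median over all genes 0.00. The fibroblast marker mean was also lower on all arrays labelled p38α-lox than on all MMTV-Cre arrays, and its part was not tested. The 95% interval lay within a 2-fold difference in either direction for 32 members and within 1.5-fold for 10.

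The direction differed between the title ranges. In the lower range 29 of 36 members had lower estimates in p38α-lox and the median difference was −0.34. In the higher range 15 of 36 had lower estimates and the median was 0.10. Without p38α-lox replicate 2, 25 of 36 members had lower estimates, and the median was −0.07 against −0.04 over all genes. With array weights, 4.36 for p38α-lox replicate 3 and 0.206 for replicate 2, lower estimates numbered 19, with a median of −0.03 against −0.00. Mapk14 turned direction between the same ranges, and the part of the labels in this was not tested.

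Among the 20S alpha subunits, 6 of 7 had lower estimates (median −0.15). The smallest p-values belonged to Psma5 (−0.25 ± 0.254, or 0.07 without p38α-lox replicate 2) and Psma6 (0.22 ± 0.231, or 0.11 without p38α-lox replicate 1). Among the beta subunits, 7 of 8 had lower estimates (median −0.12). The smallest p-values there belonged to the catalytic subunits Psmb5 (−0.25 ± 0.225) and Psmb6, which has caspase-like activity (−0.12 ± 0.154). Without p38α-lox replicate 1 these were −0.03 and 0.01. In the lower title range Psma5 was −0.67 and Psmb5 −0.66, and in the higher 0.17 and 0.16, whereas Psma6 and Psmb6 kept their direction. With all arrays, all 5 measured base ATPases had lower estimates (median −0.19). Psmc2 stood at −0.30 ± 0.241 and Psmc5 at −0.41 ± 0.356, the latter −0.21 without MMTV-Cre replicate 1. The limma adjusted p of each of these 6 genes was 0.999.

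The 3 non-ATPase subunits of the base, which hold ubiquitin receptors and docking sites, had the lowest median of the roles, −0.42. Psmd2, a scaffold that docks shuttle factors, measured 9.89, 10.00, 9.95 and 9.68 in MMTV-Cre and 9.47, 9.32, 9.39 and 9.62 in p38α-lox. All 4 arrays labelled p38α-lox lay below all 4 MMTV-Cre arrays, by a narrow margin at the nearest pair. The difference was −0.43 ± 0.179 (95% interval −0.81 to −0.05, limma adjusted p = 0.984), and it was −0.56 in the lower and −0.31 in the higher range. The ubiquitin receptor Psmd4 measured 9.66, 10.18, 10.42 and 9.99 in MMTV-Cre and 9.11, 10.15, 9.66 and 9.76 in p38α-lox. These arrays overlapped, and the difference was −0.39 ± 0.194 (limma adjusted p = 0.999), or −0.21 without p38α-lox replicate 1.

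In the lid, 5 of 8 subunits had lower estimates (median −0.13). Psmd11, which clamps the lid to the core particle, measured 10.23, 10.18, 10.29 and 10.13 in MMTV-Cre and 9.78, 9.96, 9.67 and 10.03 in p38α-lox. The arrays did not overlap, and the difference was −0.35 ± 0.217 (limma adjusted p = 0.999), or −0.33 in the lower range and −0.36 in the higher. Psmd2 and Psmd11 were the 2 members with all p38α-lox arrays lower, 5.56% of members against 1.17% of all tested genes. No member had all p38α-lox arrays higher, as 0.93% of all genes had. Psmd3 differed by −0.50 ± 0.283 (limma adjusted p = 0.999), but by −1.22 in the lower range, 0.23 in the higher one and −0.19 without p38α-lox replicate 1. The base chaperones Psmd9 and Psmd5 differed by −0.07 ± 0.264 and −0.02 ± 0.23. They were −0.61 and −0.35 in the lower range and 0.46 and 0.32 in the higher.

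Of the activators, which open the core without ATP, Psme3 had the smallest p of all members. Psme3 encodes the nuclear activator PA28γ, which promotes breakdown of some proteins without ubiquitin. It measured 9.86, 9.70, 9.63 and 9.30 in MMTV-Cre and 8.68, 8.96, 9.33 and 9.27 in p38α-lox. The groups met at 9.30 and 9.33. The difference was −0.56 ± 0.199 (95% interval −0.99 to −0.14, limma adjusted p = 0.87), or −0.96 in the lower range and −0.16 in the higher one. Its other probe set differed by −0.50. Psme2 differed by 0.30 ± 0.408 (limma adjusted p = 0.999), or 0.04 without p38α-lox replicate 2.

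**Figure D3:**
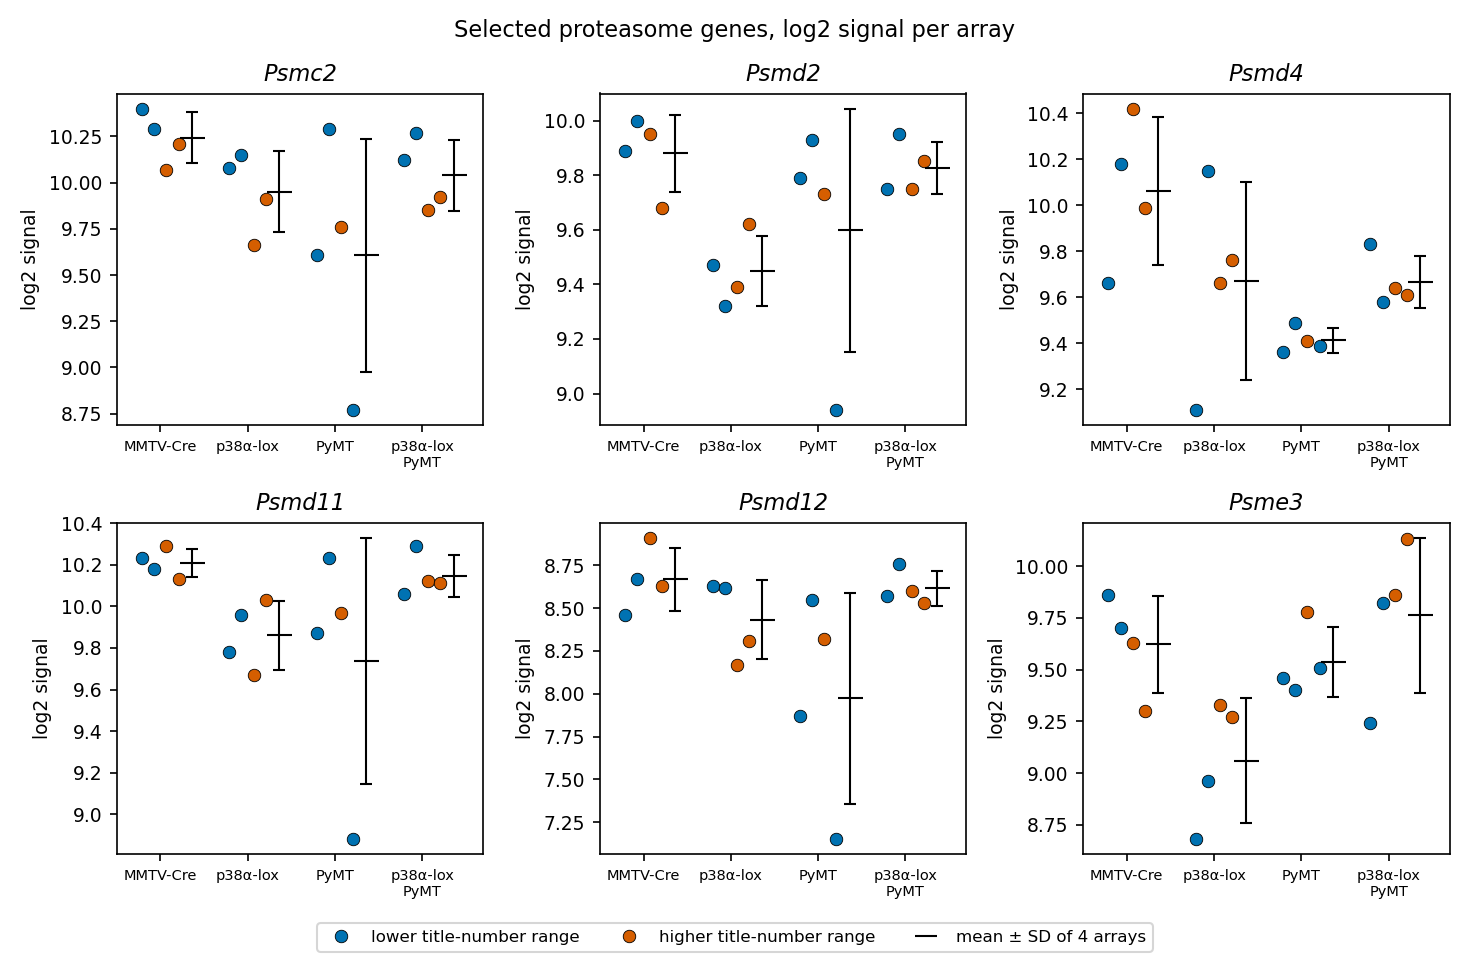
Log2 signal per array of Psmc2, Psmd2, Psmd4, Psmd11, Psmd12 and Psme3, the 6 members with the smallest p-values for the interaction, by group, coloured by the range of the title number, with the mean ± SD of 4 arrays. The arrays labelled p38α-lox lie below MMTV-Cre for Psmd2 and Psmd11, and PyMT replicate 4 is the lowest point for Psmc2, Psmd2, Psmd11 and Psmd12.

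The promoters of these 6 genes are shown because all 6 hold the core motif of ETS transcription factors. The 6 were picked by their p-values in these same data, and whether the motif goes with the differences was not tested. The sequences come from the RefSeq promoter table of assembly GRCm38.p6, which gives 250 bases before to 50 after each start and held 33 windows for 30 of the 37 members. CCGGAAG, searched on both strands, stood in 33.3% of the member windows and in 8.86% of all 32851 windows. The 10 member genes with a match were Psma6, Psmc1, Psmc2, Psmd2, Psmd4, Psmd6, Psmd11, Psmd12, Psmd13 and Psme3. Each stretch below is 61 bases, 5′ to 3′ on the strand of the gene, with the match in capitals.
Psmc2, chr5:21786686-21786746, strand plus: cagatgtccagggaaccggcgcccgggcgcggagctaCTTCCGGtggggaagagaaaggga
Psmd2, chr16:20651591-20651651, strand plus: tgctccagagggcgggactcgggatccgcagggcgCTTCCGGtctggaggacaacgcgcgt
Psmd4, chr3:95042706-95042766, strand minus: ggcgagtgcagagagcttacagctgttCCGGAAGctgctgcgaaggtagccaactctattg
Psmd11, chr11:80428554-80428614, strand plus: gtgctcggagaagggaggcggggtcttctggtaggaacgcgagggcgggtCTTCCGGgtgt
Psmd12, chr11:107479467-107479527, strand plus: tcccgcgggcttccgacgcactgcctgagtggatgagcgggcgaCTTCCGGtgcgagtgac
Psme3, chr11:101316079-101316139, strand plus: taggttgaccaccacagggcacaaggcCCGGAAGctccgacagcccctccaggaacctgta

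Of the other motifs, the palindrome of the factor Nrf1 stood in 18.2% of member windows and 4.6% of all windows, and the NF-Y box CCAAT in 36.4% and 37.4%. The gene Nrf1 is not Nfe2l1, which was named above for the antioxidant response element. The antioxidant response element core TGACNNNGC stood in 12.1% of member windows and 12.4% of all. No match of one motif overlapped a match of another in these windows. A match is a string of letters and not a measured binding site. The antioxidant core was present in 4 member windows, of which 3 are shown because the proteolytic subunits Psmb5 and Psmb6 are among them.
Psmb5, chr14:54618008-54618068, strand minus: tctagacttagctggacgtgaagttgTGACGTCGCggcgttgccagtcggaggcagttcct
Psmb6, chr11:70525296-70525356, strand plus: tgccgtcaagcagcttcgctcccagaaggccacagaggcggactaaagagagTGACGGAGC
Psmd12, chr11:107479278-107479338, strand plus: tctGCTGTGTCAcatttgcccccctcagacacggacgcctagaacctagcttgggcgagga

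The comparison with PyMT asks the same of oncogene-expressing cells. Again 0 of 36 members passed the adjusted threshold between p38α-lox PyMT and PyMT by limma, and 0% of all tested genes did. At an unadjusted p under 0.05 stood 1 member, Psmd12 (2.78% of members, higher; 3.58% of all genes, of which 1.07% higher and 2.51% lower). Estimates were higher in p38α-lox PyMT for 29 of 36 members (80.6%, against 41.8% of all genes), with a median of 0.21 against −0.04 over all genes. Without PyMT replicate 4 the estimates were higher for 26 members and the median was 0.05. The 95% interval lay within a 2-fold difference for 29 members and within 1.5-fold for 9.

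All 7 alpha subunits had higher estimates (median 0.25), among them Psma3 (0.25 ± 0.152) and Psma7 (0.44 ± 0.29). These were 0.11 and 0.15 without PyMT replicate 4. The beta subunits divided evenly, 4 higher and 4 lower (median 0.03), with Psmb7 at 0.46 ± 0.313 and Psmb3 at −0.17 ± 0.161. They stood at 0.05 and −0.09 without that array. The limma adjusted p of these 4 genes was 0.999.

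Of the base ATPases, 4 of 5 had higher estimates (median 0.32). Psmc2 measured 9.61, 10.29, 9.76 and 8.77 in PyMT and 10.12, 10.27, 9.85 and 9.92 in p38α-lox PyMT. The p38α-lox PyMT arrays lay inside the range of the PyMT arrays. The difference was 0.43 ± 0.241 (limma adjusted p = 0.999), and 0.15 without PyMT replicate 4. Psmc5 differed by 0.62 ± 0.356, or 0.21 without that array.

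Of the base non-ATPases, all 3 had higher estimates (median 0.25). Psmd4 measured 9.36, 9.49, 9.41 and 9.39 in PyMT and 9.83, 9.58, 9.64 and 9.61 in p38α-lox PyMT. All p38α-lox PyMT arrays were higher, and PyMT replicate 4 did not stand apart for this gene. The difference was 0.25 ± 0.194 (limma adjusted p = 0.999), but its other probe sets differed by 0.09 and −0.02. Psmd4 was the 1 member with all p38α-lox PyMT arrays higher (2.78% of members, 0.659% of all genes), and 0 members had all lower, against 1.89% of all genes. Psmd1 differed by 0.63 ± 0.376, or 0.26 without PyMT replicate 4.

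In the lid, 7 of 8 subunits had higher estimates (median 0.25). Psmd12, a scaffold subunit of the lid, measured 7.87, 8.55, 8.32 and 7.15 in PyMT and 8.57, 8.76, 8.60 and 8.53 in p38α-lox PyMT. The groups met at 8.53 and 8.55. The difference was 0.64 ± 0.236 (95% interval 0.14 to 1.15, limma adjusted p = 0.999), and 0.37 without PyMT replicate 4. Psmd11 measured 9.87, 10.23, 9.97 and 8.88 in PyMT and 10.06, 10.29, 10.12 and 10.11 in p38α-lox PyMT, which overlapped. It differed by 0.41 ± 0.217, or 0.12 without that array.

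The base chaperone Psmd5 differed by 0.31 ± 0.23 (0.12 without PyMT replicate 4) and Psmd9 by −0.06 ± 0.264. All 3 activators had higher estimates (median 0.22), with Psme2 at 0.61 ± 0.408 (0.23 without that array) and Psme3 at 0.22 ± 0.199. Psme3 measured 9.46, 9.40, 9.78 and 9.51 in PyMT and 9.24, 9.82, 9.86 and 10.13 in p38α-lox PyMT. These arrays overlapped.

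**Figure D4:**
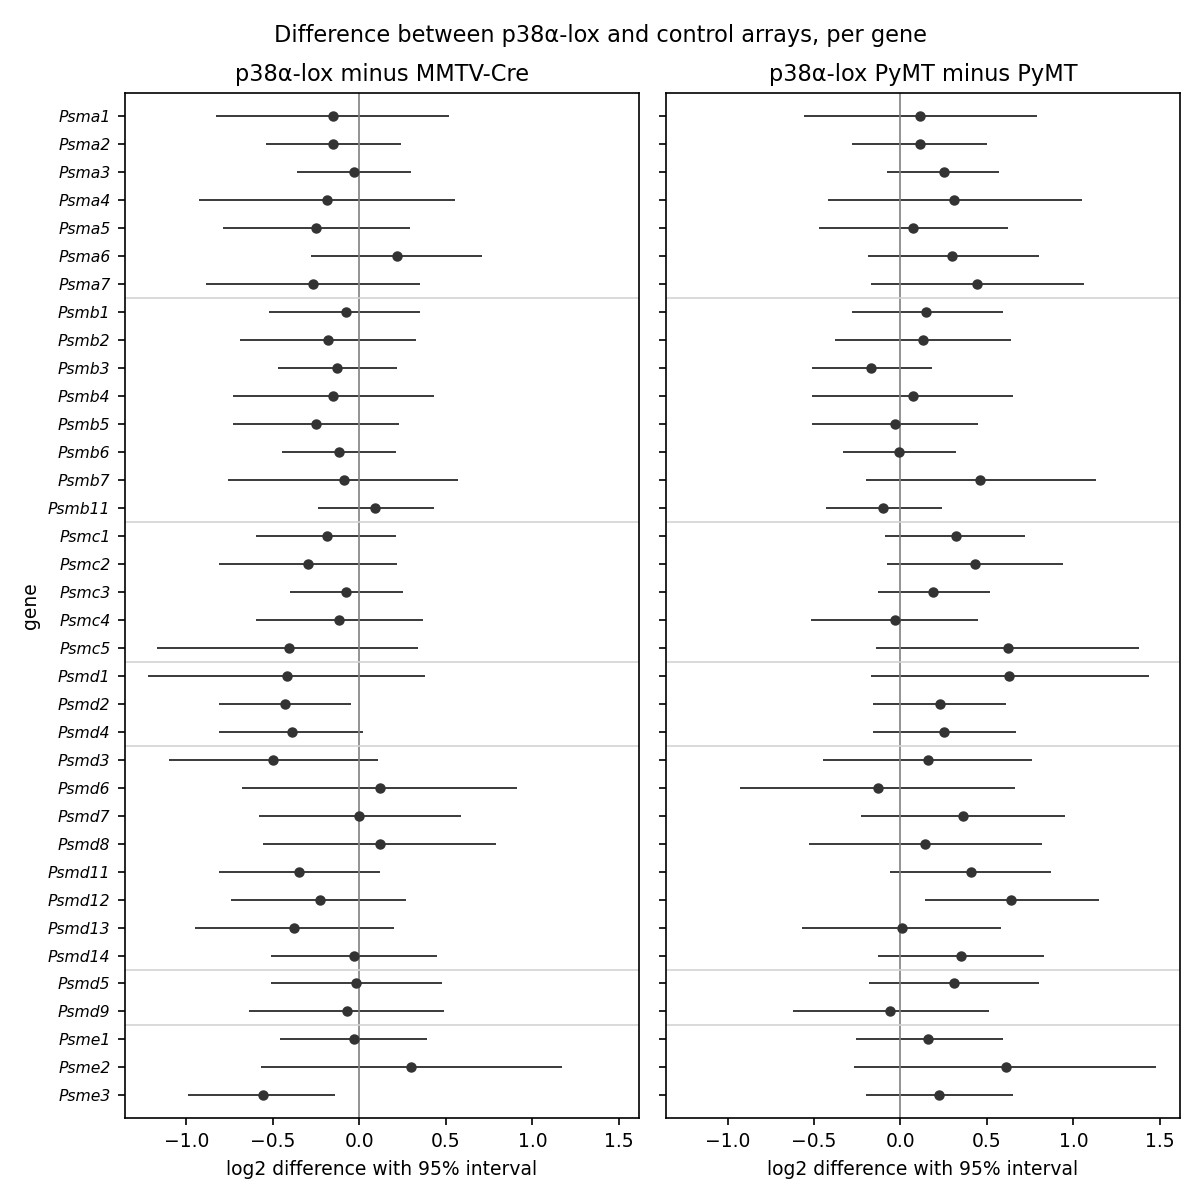
Log2 difference of each tested proteasome gene between p38α-lox and MMTV-Cre (left) and between p38α-lox PyMT and PyMT (right), with the 95% interval from limma and grey lines between roles. The interval lies on one side of 0 for Psmd2 and Psme3 on the left and for Psmd12 on the right, and 0 genes passed the adjusted threshold in either panel.

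The interaction is the p38α-lox difference with PyMT minus that without. It asks whether the difference between the labels depends on the oncogene or on age, which cannot be told apart. By limma 0 of 36 members and 0% of all tested genes passed the adjusted threshold. At an unadjusted p under 0.05 stood 6 members (16.7%), all higher, against 2.82% of all genes (1.01% higher, 1.8% lower). They were Psme3 (0.79 ± 0.281), Psmd12 (0.88 ± 0.334), Psmd2 (0.66 ± 0.253), Psmd11 (0.75 ± 0.306), Psmd4 (0.65 ± 0.274) and Psmc2 (0.73 ± 0.34), each with limma adjusted p = 0.992. Other probe sets above the filter gave 0.87, 0.09 and 0.12 for Psmd11, 0.52 and 0.03 for Psmd4, and 0.57 for Psme3. Estimates were above 0 for 33 of 36 members (91.7%, against 44.8% of all genes), and the median was 0.32 against −0.04.

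The median was 0.69 in the lower title range, which holds PyMT replicate 4, and −0.03 in the higher one, which has 1 PyMT array and where 18 of 36 members lay above 0. Without PyMT replicate 4 it was 0.16 against −0.03 over all genes, with 29 members above 0, and with array weights 0.13, with 23. Leaving out that array gave 0.60 for Psmd12, 0.44 for Psmd2, 0.47 for Psmd11 and 0.45 for Psmc2.

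By role the interaction medians were 0.28 for the alpha ring, 0.22 for the beta ring, 0.51 for the base ATPases, 0.66 for the base non-ATPases, 0.38 for the lid, 0.17 for the base chaperones and 0.31 for the activators. Of the core subunits Psma7 stood at 0.71 ± 0.41, Psma3 at 0.28 ± 0.216, Psmb7 at 0.56 ± 0.442 and Psmb2 at 0.31 ± 0.337. Leaving out PyMT replicate 4 gave 0.41, 0.14, 0.14 and 0.01. Psmc5 stood at 1.03 ± 0.503 (0.62 without that array), Psmd5 at 0.32 ± 0.325 (0.14 without it), Psmd9 at 0.02 ± 0.374 and Psme1, the partner of Psme2, at 0.20 ± 0.281 (0.01 without p38α-lox replicate 1). The 95% interval lay within a 2-fold difference for 13 of 36 members, so larger interactions are within the error for most of them.

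The comparison of PyMT with MMTV-Cre sets oncogene-expressing cells of 6 weeks against cells of 9 weeks without it, and it shares its MMTV-Cre arrays with the comparison without PyMT and its PyMT arrays with the comparison with PyMT. By limma 0 of 36 members passed the adjusted threshold, whereas 182 of all tested genes did (1.26%). At an unadjusted p under 0.05 stood 4 members, all lower (11.1% of members, against 13.8% of all genes, 5.98% lower and 7.78% higher). Estimates were lower in PyMT for 27 of 36 members (75%, against 45% of all genes), with a median of −0.22 against 0.03. Without PyMT replicate 4, 24 members had lower estimates and the median was −0.07.

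The 3 base non-ATPases had a median of −0.65, the lid −0.36 with 7 of 8 lower, the activators −0.31 with 3 of 3 lower, and the base ATPases −0.29 with 4 of 5 lower. Psmd4 had the smallest p. Its 4 PyMT arrays lay between 9.36 and 9.49, below the 4 MMTV-Cre arrays between 9.66 and 10.42. The difference was −0.65 ± 0.194 (95% interval −1.07 to −0.24, limma adjusted p = 0.12), or −0.51 in the lower title range and −0.80 in the higher, where PyMT has 1 array. Its other probe sets differed by −0.42 and 0.02. Psmd4 was the 1 member with all PyMT arrays lower (2.78%, against 2.65% of all genes), and 0 members had all higher, against 4.44% of all genes.

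Psmd12 differed by −0.69 ± 0.236 (limma adjusted p = 0.177), and by −0.42 without PyMT replicate 4. Its MMTV-Cre arrays measured 8.46, 8.67, 8.91 and 8.63 and overlapped the PyMT arrays. Psmc2 measured 10.40, 10.29, 10.07 and 10.21 in MMTV-Cre and differed by −0.64 ± 0.241 (limma adjusted p = 0.235), or −0.36 without that array. Psmd11 differed by −0.47 ± 0.217 (limma adjusted p = 0.359), but by −0.18 without PyMT replicate 4, and the mean of its probe sets differed by 0.02. Psmd1 and Psmc5 differed by −0.77 ± 0.376 and −0.73 ± 0.356, or −0.39 and −0.32 without that array.

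Some members passed the threshold under other settings. With array weights in limma, Psmd4 (−0.67, adjusted p = 0.0146), Psmd12 (−0.69, adjusted p = 0.0269) and Psmd1 (−0.91, adjusted p = 0.0448) fell, among 1268 genes called, 8.8% of those tested. In that fit PyMT replicate 1 had a weight of 2.92 and the other PyMT arrays at most 0.731, so it leans on 1 array. Without PyMT replicate 2, Psmc2 (−0.86, limma adjusted p = 0.0454) and Psmd12 (−0.89, limma adjusted p = 0.0495) fell, among 443 genes called (3.07%). Over the alternatives that leave out 1 array, the adjusted p ran from 0.0953 to 0.296 for Psmd4, 0.0495 to 0.372 for Psmd12 and 0.0454 to 0.495 for Psmc2.

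In the core the medians lay nearer 0. The alpha ring had a median of −0.18, with Psma7 at −0.45 ± 0.29 and Psma6 at −0.32 ± 0.231, and the beta ring −0.05, with Psmb7 at −0.40 ± 0.313. These were −0.15, −0.07 and 0.02 without PyMT replicate 4. Psmb11 differed by 0.25 ± 0.158 at a level near the filter, or 0.14 without that array. The chaperones Psmd9 and Psmd5 differed by 0.32 ± 0.264 and 0.11 ± 0.23 (0.21 and 0.29 without it), and the activators Psme1 and Psme2 by −0.31 ± 0.199 and −0.36 ± 0.408 (Psme2 0.01 without it, Psme1 −0.16 without MMTV-Cre replicate 2).

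The comparison of p38α-lox PyMT with p38α-lox shares its arrays with the other comparisons in the same way. By limma 0 of 36 members passed the adjusted threshold, and 112 of all tested genes did (0.777%). Estimates were higher with PyMT for 26 of 36 members (72.2%, against 46.5% of all genes), with a median of 0.16 against −0.02. The median was 0.30 in the lower title range and −0.01 in the higher one, with 2 arrays of each group in each. At an unadjusted p under 0.05 stood 1 member, Psme3, which was higher (2.78%, against 12.2% of all genes, 6.77% higher and 5.38% lower).

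Psme3 measured 8.68, 8.96, 9.33 and 9.27 in p38α-lox and 9.24, 9.82, 9.86 and 10.13 in p38α-lox PyMT. The arrays overlapped only through the lowest p38α-lox PyMT array. The difference was 0.70 ± 0.199 (95% interval 0.28 to 1.13, limma adjusted p = 0.129), or 0.71 in the lower range and 0.69 in the higher, and the other probe set also differed by 0.70. Psme3 passed the threshold in limma with the mean of both probe sets (0.70, adjusted p = 0.0463), with array weights (0.60, adjusted p = 0.0236) and without p38α-lox PyMT replicate 1 (0.88, adjusted p = 0.0342). Under these settings 0.936%, 9.83% and 1.35% of all tested genes were called. The array weight was 4.36 for p38α-lox replicate 3 and at most 1.23 for the other p38α-lox arrays. Leaving out single arrays gave limma adjusted p from 0.0342 to 0.323.

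Psmd2 measured 9.75, 9.95, 9.75 and 9.85 in p38α-lox PyMT, all above the p38α-lox arrays, and differed by 0.37 ± 0.179 (limma adjusted p = 0.424). With array weights it was called (0.39, limma adjusted p = 0.0389), among 1416 genes. Psmd11 also had all p38α-lox PyMT arrays higher and differed by 0.28 ± 0.217 (limma adjusted p = 0.68). These were 2 of 36 members (5.56%, against 4.41% of all genes), and 0 members had all arrays lower, against 3.75%. Psmd3 differed by 0.49 ± 0.283 (0.18 without p38α-lox replicate 1) and Psmd1 by 0.29 ± 0.376 (−0.03 without p38α-lox replicate 2).

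In the core, Psma4 differed by 0.65 ± 0.345 (0.37 without p38α-lox replicate 2) and Psma3 by 0.18 ± 0.152, and Psmb6 and Psmb2 by 0.16 ± 0.154 and 0.21 ± 0.238. Psmb6 was 0.03 without p38α-lox replicate 1. All 5 base ATPases had higher estimates (median 0.22), with Psmc1 at 0.22 ± 0.191 (0.12 without that array) and Psmc4 at 0.26 ± 0.228. The chaperones Psmd5 and Psmd9 differed by 0.43 ± 0.23 and 0.33 ± 0.264 (Psmd9 0.08 without that array), and Psme1 by −0.11 ± 0.199 (0.00 without p38α-lox replicate 2).

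The other genes of the pathway were read from lists of the machinery around the proteasome, and limma called 0 of their tested genes in any of the 5 contrasts. The most separated was Zfand2a, an arsenite-inducible zinc finger protein that associates with the proteasome. It measured 9.56, 8.23, 8.54 and 8.39 in MMTV-Cre and 7.99, 7.47, 8.07 and 7.72 in p38α-lox. It measured 9.81, 9.35, 9.40 and 9.11 in PyMT and 8.37, 8.46, 8.43 and 8.62 in p38α-lox PyMT. In both comparisons all arrays with p38α-lox were lower. The differences were −0.87 ± 0.246 without PyMT (limma adjusted p = 0.687; −0.57 without MMTV-Cre replicate 1) and −0.95 ± 0.246 with PyMT (limma adjusted p = 0.999). Zfand2a also differed by 0.74 ± 0.246 between PyMT and MMTV-Cre (limma adjusted p = 0.167) and by 0.65 ± 0.246 between p38α-lox PyMT and p38α-lox (limma adjusted p = 0.274). The first of these was called without MMTV-Cre replicate 1 (1.03, limma adjusted p = 0.0237), where 0.625% of all genes were called, and with array weights (0.93, limma adjusted p = 0.0231).

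Among the 7 tested partners of the 19S cap, 6 had lower estimates in p38α-lox than in MMTV-Cre, including the cap-bound deubiquitinase Uchl5 (−0.61 ± 0.363, or −0.37 without p38α-lox replicate 2), and 4 had higher estimates in p38α-lox PyMT than in PyMT, including the deubiquitinase Usp14 (0.60 ± 0.496, or 0.18 without PyMT replicate 4). Of the 5 tested chaperones that assemble the core, 4 had lower estimates in the first comparison, with Pomp at −0.14 ± 0.159 (−0.07 without p38α-lox replicate 2), and 4 had higher ones in the second, with Pomp at 0.17 ± 0.159 (0.08 without PyMT replicate 4). All 4 tested shuttle factors, which carry ubiquitinated proteins to the cap, had higher estimates in p38α-lox PyMT, with Rad23b at 0.44 ± 0.209 (0.19 without PyMT replicate 4). Of the 8 tested regulators, 5 had lower estimates in p38α-lox and 4 in p38α-lox PyMT, where the NF-Y subunit Nfyb stood at 0.99 ± 0.425 (limma adjusted p = 0.999), or 0.51 without PyMT replicate 4. Nfe2l2, which activates antioxidant response genes, differed by −1.13 ± 0.388 between PyMT and MMTV-Cre (limma adjusted p = 0.181), or −0.87 without PyMT replicate 4.

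The immunoproteasome genes were left out of the members because interferon induces them. With all arrays the 4 genes tested on that list had higher estimates in p38α-lox, but Psmb8 was −0.01 without p38α-lox replicate 2. The transcription factor Irf1 stood at 1.10 ± 0.544 (limma adjusted p = 0.999), or 0.68 without MMTV-Cre replicate 3. In MMTV-Cre it measured 8.18 and 8.84 in the lower title range and 6.19 and 6.60 in the higher. In p38α-lox it measured 9.32 and 8.98 in the lower range and 7.94 and 7.95 in the higher. Psmb8, which replaces Psmb5 in the immunoproteasome, differed by −0.97 ± 0.334 between PyMT and MMTV-Cre (limma adjusted p = 0.181), or −0.68 without PyMT replicate 4. Of the 3 tested genes of ubiquitin supply, all had lower estimates in p38α-lox, with the conjugating enzyme Ube2l3 at −0.36 ± 0.219.

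The cytosolic chaperonin and cell cycle lists hold no proteasome genes. With all arrays their medians were on the same side as those of the members in both p38α-lox comparisons. The chaperonin had lower estimates in p38α-lox for 7 of 8 genes (median −0.07) and higher ones in p38α-lox PyMT for 7 of 8 (median 0.29), with Cct7 at 0.42 ± 0.168 (limma adjusted p = 0.999), or 0.22 without PyMT replicate 4. The cell cycle list had lower estimates in p38α-lox for 9 of 11 genes (median −0.26) and higher ones in p38α-lox PyMT for 10 of 11 (median 0.31). Its mean was lowest of all arrays on p38α-lox replicate 2, at 5.82 against 6.22 to 8.09 on the others. Without that array the estimates in p38α-lox against MMTV-Cre took both signs in each list. Pcna was then −0.15 and Ccna2 0.42, and Cct3 −0.04 and Cct8 0.12. Both lists also held both signs with all arrays. Leaving out MMTV-Cre replicate 1 instead gave 0.20 for Ccna2 and −0.71 for Pcna. Whether the shared side without PyMT rests on any 1 array was not tested. The part of cell division in the member differences was not tested.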

How the data were processed

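The authors deposited 1 log2 signal for each probe set on each array, computed with RMA per the submitters' processing notes, which state no settings. The annotation named 28898 of 45141 probe sets with 1 symbol, and 15692 stayed unnamed and unused. Members and lists were chosen with earlier results of these data known. One linear model over 16 arrays (limma 3.58.1, R 4.3.3; 12 residual degrees of freedom) gave 5 two-sided contrasts, each with standard errors, 95% intervals and Benjamini-Hochberg adjusted p-values over 14410 genes, called below 0.05. Named in each contrast are, per role, called members or else the 2 with the smallest p, and members whose arrays did not overlap; context lists name at most 2 each. Psmc5 and Psmb7 on PyMT replicate 4, and Psmd3, Psmb5, Psma4 and Psma5 on p38α-lox arrays, were picked after their values were seen, as were the probe sets and arrays described apart from this rule. Ccna2 was also picked after its values were seen.

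The procedure was tested on simulated data with 50 changed genes per fold among 14410. The noise was normal with each gene's within-group SD, independent between genes, and without arrays that stand apart, so the rates need not hold for these arrays. In p38α-lox against MMTV-Cre it recovered 18.0% of 1.5-fold and 54.0% of 2-fold changes, in p38α-lox PyMT against PyMT 12.0% and 54.0%, and in the interaction 0.0% and 28.0%. Unchanged genes called in these numbered 9, 10 and 4. Alternatives were other filters, the mean of a gene's probe sets, eBayes with trend and robust settings, another quantile normalization, median centring, array weights, only the arrays compared, a covariate for the title range, values within each range, and leaving out arrays. The number of arrays limits the precision.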

Additional observations from a re-analysis of the deposited data

Results flagged for a closer look

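The mean over the 36 members on PyMT replicate 4 was 8.84, and the next lowest array of its group was at 9.40, a gap too wide for 4 samples by Dixon's criterion. Among 144 values of single members by group examined in the same way, 5 stood apart, and chance marks about 1 group in 20. They were Psmc5 on PyMT replicate 4 (7.72, next 9.21), Psmb5 on p38α-lox replicate 1 (9.03, next 9.85), Psmb6 on p38α-lox replicate 1 (10.15, next 10.63), Psma3 on p38α-lox replicate 1 (10.84, high, next 10.50) and Psmd14, the deubiquitinase of the lid, on p38α-lox PyMT replicate 4 (10.30, high, next 9.98).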

How the results depend on the processing

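No paired analysis was possible because the labels give no replicate numbers that groups share. Of 1749 alternative values for 91 differences of named genes, 1692 kept their direction and their side of the threshold, 44 changed sign and 13 passed the threshold. In p38α-lox against MMTV-Cre the member median was −0.34 in the lower title range and 0.10 in the higher one, and genes called over all numbered 8 with array weights and 1 without a filter. In the interaction the member median was 0.13 with array weights, 0.69 in the lower and −0.03 in the higher range. In PyMT against MMTV-Cre it was −0.00 in the higher range, members called numbered 3 with array weights, and genes called 1268 with array weights, 55 with only the arrays compared and 111 without the 2 arrays that stood apart. In p38α-lox PyMT against p38α-lox members called numbered 2 with array weights and 1 with the mean of all probe sets, and genes called 1416 with array weights and 169 with only the arrays compared. In p38α-lox PyMT against PyMT array weights called 5 genes. The member mean on PyMT replicate 4 was 9.06 after a second quantile normalization and 8.81 after median centring, both tried after seeing the data.

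Signs changed for the following genes. In p38α-lox against MMTV-Cre, array weights gave 0.04 for Psma5, 0.02 for Psmd3, 0.15 for Psmd5 and 0.33 for Psmd9. Psmd5 was 0.03 after a second quantile normalization, and without the 2 arrays Psmd5 was 0.04 and Psma5 0.07. In p38α-lox PyMT against PyMT, Psmd9 was 0.17 with array weights and 0.05 without the 2 arrays. In the interaction Psmd9 was −0.11 with the mean of probe sets, −0.01 after quantile normalization, −0.16 with array weights and −0.07 with the title covariate, Psme1 was −0.07 with array weights and Psmb2 −0.00 without the 2 arrays. In PyMT against MMTV-Cre, Psmd11 was 0.02 with the mean of probe sets, Psme2 was 0.17 with array weights and 0.01 without the 2 arrays, and Psmb7 0.02 without them. In p38α-lox PyMT against p38α-lox, Psmd9 was −0.03 with the mean of probe sets, and without the 2 arrays Psmd1 was −0.03 and Psme1 0.00. The cause was not tested.

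Leaving out 1 array at a time gave these ranges. In p38α-lox against MMTV-Cre genes called ran from 0 to 4, Psma5 from −0.42 to 0.07, Psmb6 from −0.18 to 0.01, Psmd5 from −0.13 to 0.17 and Psmd9 from −0.24 to 0.18. In p38α-lox PyMT against PyMT genes called ran from 0 to 3 and Psmd9 from −0.17 to 0.15, and in the interaction Psmd9 from −0.23 to 0.22. In PyMT against MMTV-Cre members called ran from 0 to 2, genes called from 49 to 443, Psmb7 from −0.58 to 0.02, Psmd5 from −0.05 to 0.29 and Psme2 from −0.58 to 0.01. In p38α-lox PyMT against p38α-lox members called ran from 0 to 1, genes called from 26 to 194, Psmd1 from −0.03 to 0.42 and Psme1 from −0.29 to 0.00. Genes called were lowest without PyMT replicate 1 (49) and p38α-lox PyMT replicate 3 (26). Also called in the last comparison with array weights were Rad23b (0.67, limma adjusted p = 0.00494) and the segregase cofactor Ufd1 (0.50, limma adjusted p = 0.0288). Arrays give no read depth.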

Other observations

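On the 2 arrays that stood apart, some subunits were the highest of all 16 arrays. On PyMT replicate 4 these were the base ATPase Psmc4 (10.83), the base chaperone Psmd9 (6.79) and Psmb11 (4.28). On p38α-lox replicate 2 they were the beta subunit Psmb3 (10.99), the lid subunit Psmd8 (12.17) and the activator Psme2 (10.02).

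Probe sets of Psmd11 disagreed. Between PyMT and MMTV-Cre the probe set used differed by −0.47, and 3 others above the filter by −0.41, 0.14 and 0.79. Between p38α-lox PyMT and PyMT the probe set used differed by 0.41, and the same 3 others by 0.43, −0.11 and −0.22.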
